A study of Homo sapiens with 6 samples.

Results

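The interleukin-1 (IL-1) family and its receptors were examined in RNA-seq data from the human triple-negative breast carcinoma line MDA-MB-231 after exposure to the peptide PDBAG1. The set held 10 of the 17631 genes in the data: the agonist ligands IL1A, IL1B, IL18 and IL33, the receptor antagonist IL1RN, the receptor chains IL1R1 and IL1RAP, the decoy receptor IL1R2, the kinase IRAK2 and the protease CASP1. These genes were chosen by name with the PDBAG1 against vehicle differences of the data already known, so that contrast was itself used in the choice, and the members' own differences are given as a description. No p-value is given for a member, and how many members passed the fit across all genes is listed without weight as evidence. The question was how ligands, antagonist, receptors and processing genes stood relative to each other in vehicle and PDBAG1 cells.

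The design compared 3 libraries of vehicle-treated cells with 3 libraries of cells given 30 µM PDBAG1, both for 24 h. PDBAG1 joins a stretch of the GPD1 protein to a cell-penetrating sequence. All 6 libraries came from the same line in the same serum-containing medium, the labels name breast tumour tissue as well as the line, and no source says whether replicates were separate cultures, so the spread between them may be technical. No genotype differed between the groups, no inactive peptide was among the samples used here, and the peptide was dissolved in distilled water before it was added to the medium.

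IL-1 signalling is an innate inflammatory pathway. IL-1α and IL-1β bind the receptor IL1R1, which then recruits IL1RAP and passes the signal through MYD88 and IRAK kinases to NF-kB and MAP kinases, while IL1RN occupies IL1R1 without signalling and IL1R2 captures ligand without passing it on. IL-1β and IL-18 are made as inactive precursors that CASP1 cleaves in inflammasomes, and IL-33 is a nuclear alarmin that signals through a related receptor. Myeloid cells are the usual main source of IL-1 in tissue, and many carcinoma lines also transcribe IL1A and IL1B.

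The promoters of the 3 members that differed most between the groups are shown so that their proximal sequences can be compared. Each is the 250 bases before the start given by RefSeq on GRCh38.p14, 5′ to 3′ on the strand of the gene, and capitals mark matches on either strand to the AP-1 motif TGANTCA or the C/EBP motif TTNNGNAA. Windows of 8 of the 10 members were used, and those of IL18 and CASP1 were not analysed here. Where RefSeq gave more than 1 start for a gene, only the start nearest to the gene's 5′ end in GENCODE was used. For IL1RN and IL1R1 that start lay inside the gene, downstream of its GENCODE 5′ end. Their windows were chr2:113117721-113117970 and chr2:102104354-102104603. The windows lie at chr2:112784494-112784743 (minus strand) for IL1A, chr2:112836780-112837029 (minus strand) for IL1B and chr3:10164669-10164918 (plus strand) for IRAK2.
IL1A: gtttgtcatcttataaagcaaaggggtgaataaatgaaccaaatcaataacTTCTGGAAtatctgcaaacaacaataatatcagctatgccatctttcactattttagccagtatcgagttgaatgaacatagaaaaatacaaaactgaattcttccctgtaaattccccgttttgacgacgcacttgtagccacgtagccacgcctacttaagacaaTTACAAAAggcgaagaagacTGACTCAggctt
IL1B: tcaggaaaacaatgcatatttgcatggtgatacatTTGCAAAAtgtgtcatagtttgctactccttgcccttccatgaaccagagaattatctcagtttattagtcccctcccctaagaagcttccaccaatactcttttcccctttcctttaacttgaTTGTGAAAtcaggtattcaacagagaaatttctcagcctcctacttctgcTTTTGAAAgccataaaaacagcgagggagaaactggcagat
IRAK2: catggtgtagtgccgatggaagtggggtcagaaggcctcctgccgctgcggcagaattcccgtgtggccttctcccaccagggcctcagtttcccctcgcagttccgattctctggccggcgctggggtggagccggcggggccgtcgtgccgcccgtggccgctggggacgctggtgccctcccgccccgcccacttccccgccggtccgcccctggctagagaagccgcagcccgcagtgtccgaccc

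IL1A held an AP-1 match from 12 to 6 bases before its start. The AP-1 motif, which is read the same way on both strands, occurred in 6.57% of 35114 promoter windows of the same length. C/EBP matches numbered 3 in the IL1B window and 2 in the IL1A window. At least 1 was held by 33.2% of all windows, and the share with 2 or 3 was not computed. IRAK2 held neither motif, so no marked motif was common to the 3 windows. Outside these 3, an AP-1 match also lay in the IL1RN window, whose gene stayed under the expression filter, and IL1R1 and IL1R2 held C/EBP matches. The NF-kB consensus was found in 5.21% of all windows and in none of the 8 members' windows, with 1 start searched per gene. The hypoxia-response letters ACGTG or GCGTG occurred in 18.5% and 32.2% of all windows, and of the 3 windows only IL1A held them, with 1 match to each. In base composition IL1A (37.6% G and C) and IL1B (40.0%) stood below the median window (58.0%), whereas IRAK2 stood above it (72.0%). These matches describe letters in a short window and are not evidence of binding.

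Values are TPM, a transcript level scaled for gene length and library size, so levels of different genes can be set side by side. A gene counted as expressed when at least 3 of the 6 libraries reached 1 TPM. By this filter 12582 genes were tested, among them 7 of the 10 members. IL1RN, IL1R2 and IL33 fell below it. Differences were fitted across all 12582 genes with limma on log2(TPM + 1), which understates changes of low genes, and are given as log2 fold changes of PDBAG1 over vehicle with their standard errors (SE).

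IL1B was the most abundant member in both groups. Its level was 178.57, 175.33 and 184.02 TPM in the 3 vehicle libraries and 633.37, 636.82 and 578.07 TPM in the 3 PDBAG1 libraries. The groups did not overlap, and the lowest PDBAG1 library stood more than 3 times above the highest vehicle library. Mean levels were 179 ± 4.39 TPM and 616 ± 33.0 TPM (SD, n = 3 each). The log2 fold change was 1.77 (SE 0.04), the 8th highest of the genes tested. By mean level IL1B ranked 910th of the 17631 genes with vehicle and 210th with PDBAG1.

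IL1A, which encodes the IL-1α precursor, was measured at 15.49, 13.20 and 14.21 TPM with vehicle and at 33.01, 31.45 and 30.64 TPM with PDBAG1. Every PDBAG1 library was above every vehicle library. The log2 fold change of 1.10 (SE 0.07) was smaller than that of IL1B, and the gain in mean level was 17.4 TPM against 437 TPM for IL1B. As a result the ratio of IL1B to IL1A within a library went from 12.6 ± 0.932 with vehicle to 19.4 ± 0.723 with PDBAG1 (SD, n = 3 each), without overlap.

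IL18, the other CASP1-dependent ligand, had the second highest level with vehicle, at 97.42, 89.77 and 92.77 TPM. With PDBAG1 it was at 97.26, 94.43 and 98.20 TPM. The groups overlapped, and the 95% interval of its log2 fold change ran from -0.05 to 0.15. IL33 was listed at 0 in 5 libraries and at 0.03 TPM in PDBAG1 replicate 1. These cells therefore held transcripts of 3 of the 4 agonist ligands at measurable levels, and only IL1A and IL1B of them differed between the groups without overlap.

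**Figure D1:**
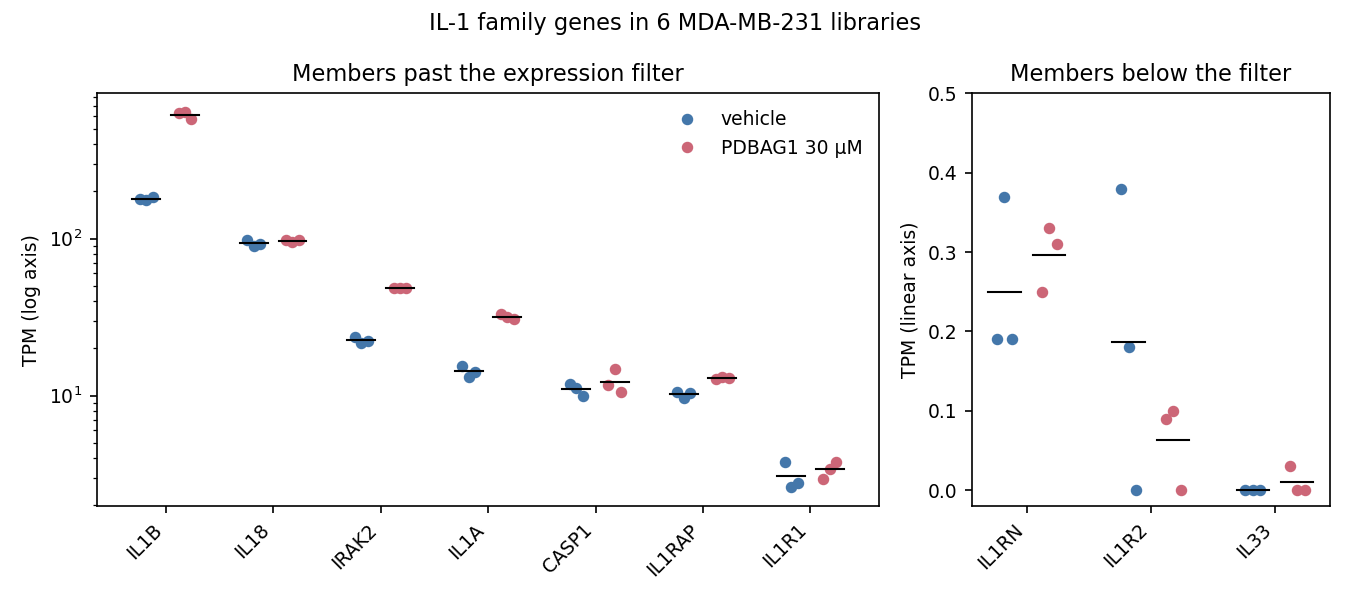
TPM of the 10 members in each library, on a log axis for the 7 genes past the expression filter (left) and on a linear axis for the 3 below it (right). Points are single libraries (blue, vehicle; red, 30 µM PDBAG1) and bars are means of 3. IL1B, IRAK2, IL1A and IL1RAP show no overlap between groups, and IL18, CASP1 and IL1R1 do overlap.

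The sum of the 4 agonist ligand levels was 278 to 291 TPM in the vehicle libraries and 707 to 764 TPM in the PDBAG1 libraries. IL1B made up 62.5% ± 1.08 of this sum in vehicle cells and 82.7% ± 0.878 in PDBAG1 cells (SD, n = 3 each). The share of IL18 was 31.9% to 33.4% with vehicle and 12.4% to 13.9% with PDBAG1, although its levels overlapped, and that of IL1A from 4.98% ± 0.298 to 4.26% ± 0.118. The ratio of IL1B to IL18 went from 1.92 ± 0.0796 to 6.38 ± 0.443. The composition of the ligand pool thus differed mainly through IL1B.

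**Figure D2:**
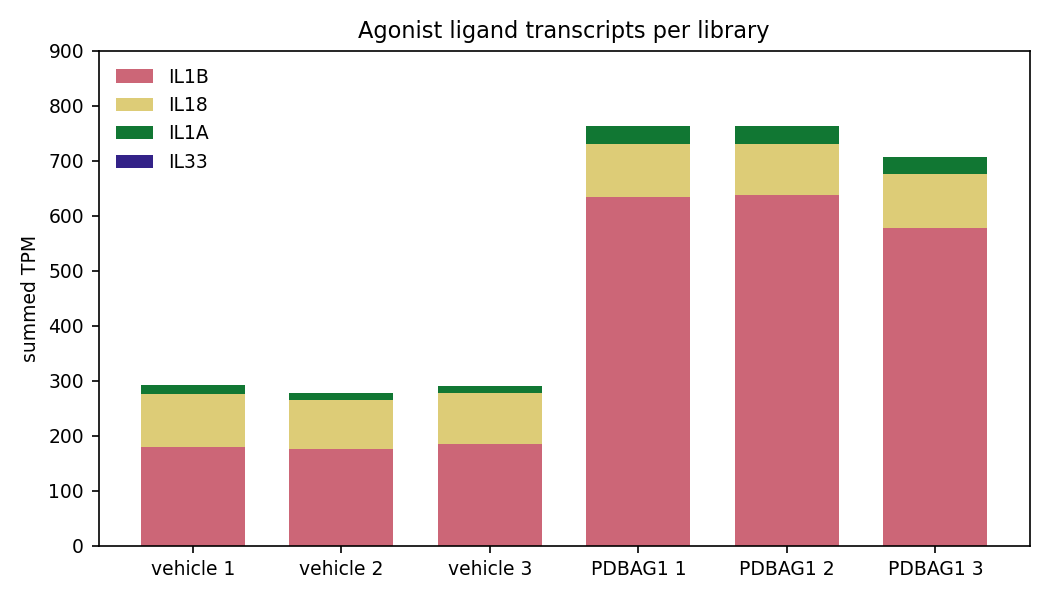
Summed TPM of the 4 agonist ligands in each library, stacked by gene (bars start at 0; IL33 is too low to be seen). The total is at most 291 TPM in the vehicle libraries and at least 707 TPM in the PDBAG1 libraries, and IL1B accounts for most of the difference.

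IL1RN encodes the natural antagonist that competes with IL-1α and IL-1β for IL1R1. It was at 0.19, 0.37 and 0.19 TPM with vehicle and at 0.25, 0.33 and 0.31 TPM with PDBAG1. The groups overlapped at a level below the filter, where values rounded to 0.01 TPM are coarse. Relative to the summed agonists IL1A and IL1B, the antagonist transcript amounted to 0.0979%, 0.196% and 0.0958% with vehicle and to 0.0375%, 0.0494% and 0.0509% with PDBAG1. The PDBAG1 libraries lay below the vehicle libraries in this ratio, whose denominator holds the difference. The gene-level values do not separate the secreted from the intracellular forms of the antagonist.

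Both signalling receptor chains stood at lower levels than IL1B, IL18 and IL1A in each group, and above IL33. IL1R1, the ligand-binding chain, stood at 3.80, 2.61 and 2.77 TPM in the vehicle libraries and at 2.94, 3.43 and 3.79 TPM with PDBAG1, and the groups overlapped (log2 fold change 0.12, 95% interval -0.15 to 0.39). IL1RAP, the accessory chain shared by the receptors for IL-1, IL-33 and IL-36, was at 10.57, 9.60 and 10.34 TPM with vehicle and 12.81, 13.04 and 12.88 TPM with PDBAG1. Its groups did not overlap, but the log2 fold change of 0.32 (SE 0.07) was below the 1.5-fold limit used in the study. IL1RAP exceeded IL1R1 in every library, by a ratio of 3.40 ± 0.534 in vehicle cells and 3.85 ± 0.481 in PDBAG1 cells (SD, n = 3 each), and these ratios overlapped. The decoy IL1R2 was near the limit of the data, at 0.38, 0.18 and 0 TPM with vehicle and 0.09, 0.10 and 0 TPM with PDBAG1.

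IRAK2, a kinase of the receptor complex that sustains NF-kB signalling, was at 23.69, 21.72 and 22.23 TPM with vehicle and at 48.37, 48.33 and 48.70 TPM with PDBAG1. The PDBAG1 libraries differed from each other by less than 1 TPM, and the groups did not overlap. The log2 fold change was 1.07 (SE 0.06), close to that of IL1A. CASP1, which cleaves the IL-1β and IL-18 precursors, was at 11.82, 11.19 and 9.94 TPM with vehicle and 11.67, 14.66 and 10.52 TPM with PDBAG1, and its groups overlapped (log2 fold change 0.14, 95% interval -0.09 to 0.37). CASP1 shares closely similar sequence with CARD16, whose reads may not have been fully separated from it. CASP1 transcript equalled 6.13% ± 0.646 of the IL1B level in vehicle cells and 1.99% ± 0.272 in PDBAG1 cells (SD, n = 3 each).

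**Figure D3:**
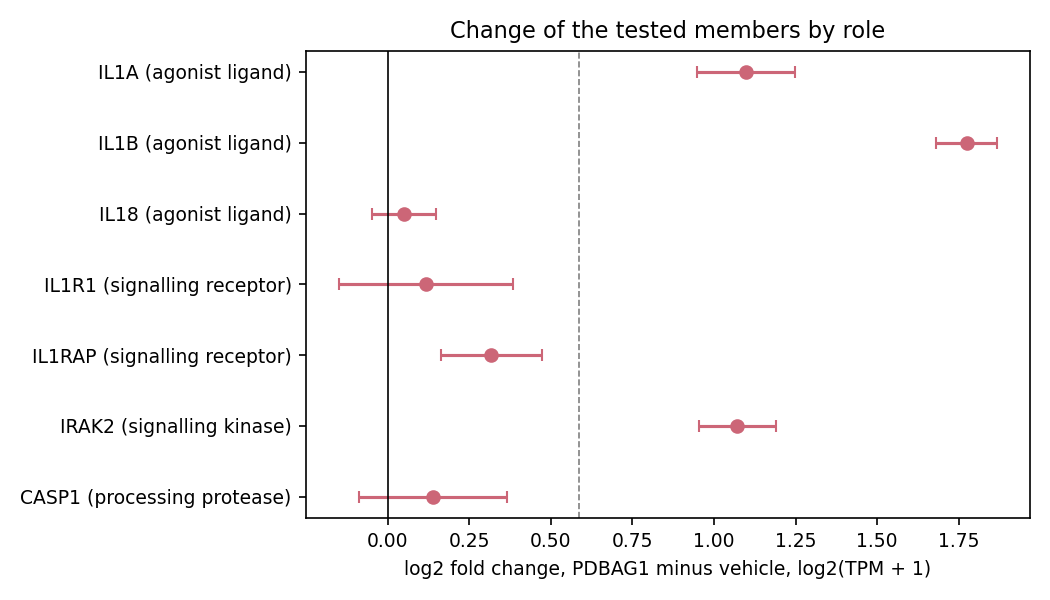
Log2 fold change of the 7 tested members on the log2(TPM + 1) scale, by role, with 95% intervals from limma (3 libraries a group); the dashed line is 1.5-fold. IL1B, IL1A and IRAK2 lie at 1.07 or above, IL1RAP at 0.32, and the intervals of IL18, IL1R1 and CASP1 span 0.

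The order of levels with vehicle was IL1B, IL18, IRAK2, IL1A, CASP1, IL1RAP, IL1R1, IL1RN, IL1R2 and IL33. CASP1 and IL1RAP were not apart beyond their spread, nor were IL1RN and IL1R2, nor IL1R2 and IL33. With PDBAG1 the order was the same but for IL1RAP and CASP1, which again overlapped. The overlap of IL1R2 with IL33 remained, whereas IL1RN stood apart from IL1R2.

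At the study's 1.5-fold limit, together with a Benjamini-Hochberg adjusted p below 0.05 in limma, 3 members were called higher with PDBAG1 (IL1A, IL1B and IRAK2) and 0 lower. Of all genes tested, 2.86% were called higher (360 genes) and 0.477% lower (60 genes), a split that was 287 against 94 genes under quantile normalization. Without the fold limit 4 members passed as higher, the fourth being IL1RAP, beside 21.7% of all genes as higher and 15.9% as lower. In the same 4 members the PDBAG1 values all lay above the vehicle values, which held for 27.2% of all genes. Because the contrast was used to choose the members, nothing is read from these counts or from their repeat under other settings. In RNA from whole cultures, more transcript per cell and more cells that express a gene cannot be told apart.

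IL1A, IL1B and IL1RN lie in 1 cluster on chromosome 2 (GRCh38, GENCODE v44). IL1A (112773925 to 112784493) and IL1B (112829751 to 112836816), both on the minus strand, start 52.3 kb apart, and IL1RN (113099315 to 113134016) starts 262 kb from IL1B. Within 500 kb of the stretch from IL1A to IL1RN, 13 other genes were tested. Their log2 fold changes ran from -0.35 for POLR1B to 0.38 for PAX8. At an adjusted p under 0.05, 3 were higher (SLC20A1, PSD4 and PAX8) and 1 was lower (POLR1B). CKAP2L, the tested gene nearest to IL1A, had a log2 fold change of -0.01, and IL37, the next ligand gene after IL1B, one of 0.08. The ligand genes IL36G, IL36A and IL36B and the antagonist gene IL36RN, which lie between IL1B and IL1RN, were all under the filter. The large differences in this stretch were those of IL1A and IL1B.

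**Figure D4:**
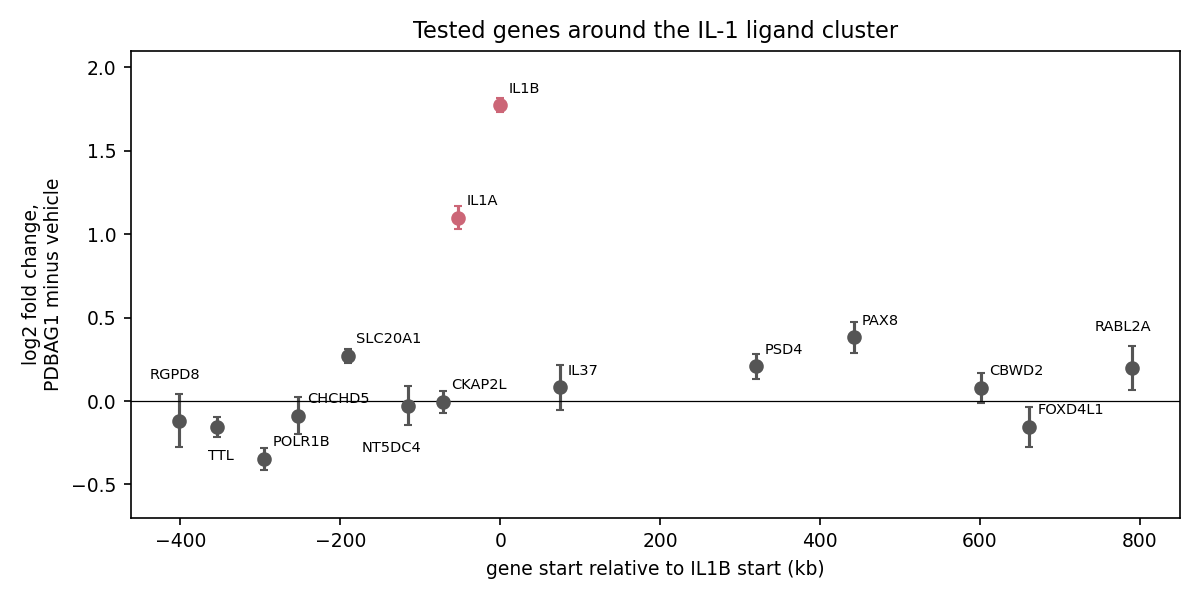
Log2 fold change (points; bars are SE) of each tested gene within 500 kb of the IL1A to IL1RN stretch, by the distance of its start from that of IL1B in kb. IL1A and IL1B (red) stand at 1.10 and 1.77, and the 13 other genes (grey) lie between -0.35 and 0.38.

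The receptor genes IL1R2 (101991960 to 102028544) and IL1R1 (102064544 to 102179874) form a separate cluster on the same chromosome. Of the 6 other genes within 500 kb of it only MAP4K4, a stress kinase, was tested, and it was higher with PDBAG1 (67.4 to 116 TPM, log2 fold change 0.77, SE 0.05). IL1RL2, IL1RL1 and IL18R1, the receptors for IL-36, IL-33 and IL-18, were each below 1 TPM in both groups. The remaining members lie elsewhere: IL1RAP (190514051 to 190659750) and IRAK2 (10164919 to 10243745) on chromosome 3, IL33 (6215786 to 6257983) on chromosome 9, and CASP1 (105025397 to 105035250) and IL18 (112143253 to 112164096) on chromosome 11.

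The other genes of the pathway came from 4 lists written by role, and none of them are members. A list of 14 further ligands, antagonists and receptors held 11 in the data, of which 4 were tested and 7 were below 1 TPM in every library. SIGIRR, an inhibitory receptor of the family, was the 1 gene that passed an adjusted p of 0.05. This share, 25% of the 4 tested, was near the 21.7% of all genes that were higher. It rose from 10.46, 10.83 and 11.89 TPM to 14.32, 14.53 and 13.48 TPM (log2 fold change 0.33, SE 0.07, limma adjusted p = 0.00372). IL18BP, the soluble inhibitor of IL-18, was at 6.50 ± 0.781 and 7.75 ± 0.750 TPM (SD, n = 3 each), and its groups overlapped. The count of 1 went up when some single libraries were left out, to 3 without vehicle replicate 1 and 2 without PDBAG1 replicate 1. It stayed at 1 without each other library. The median log2 fold change of the 4 tested genes was 0.25, against 0.03 for all genes tested.

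Of 30 genes that carry the signal from the IL-1 receptor, 28 were tested, 6 were higher and 3 lower at an adjusted p of 0.05, and none reached 1.5-fold. These shares, 21.4% and 10.7%, compare with 21.7% and 15.9% of all genes, so the list as a whole stood near the background, and the genes named from it are single values. Their median log2 fold change was 0.09. SQSTM1, a scaffold that binds TRAF6, rose by a log2 fold change of 0.51, from 1036 ± 20.3 to 1477 ± 15.2 TPM (SD, n = 3 each). TAB3, which links TAK1 to ubiquitin chains, rose from 11.6 ± 0.811 to 15.4 ± 1.35 TPM, and IRAK3, an IRAK that restrains the pathway, rose from 8.21 ± 0.483 to 10.8 ± 0.883 TPM. MAP2K3, a kinase upstream of p38, rose from 67.0 ± 0.682 to 85.1 ± 2.46 TPM. UBE2N, the ubiquitin-conjugating enzyme used by TRAF6, fell from 71.5 ± 1.64 to 61.2 ± 2.28 TPM, and CHUK, an IkB kinase, fell from 44.9 ± 2.60 to 39.1 ± 2.51 TPM. IRAK1 and IRAK4, the partners of IRAK2 in the receptor complex, had log2 fold changes of 0.01 and 0.07 and did not pass. MYD88, the adaptor, passed narrowly (log2 fold change 0.14, adjusted p = 0.0429 in limma). The count of 9 was 5 without PDBAG1 replicate 2.

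Among 31 genes for inflammasome sensing, processing and release, 22 of the 28 in the data were tested. At an adjusted p of 0.05, 8 were higher (36.4%) and 1 lower (4.55%), beside 21.7% and 15.9% of all genes, with a median log2 fold change of 0.11. AIM2, a sensor of cytosolic DNA, was the 1 gene called at 1.5-fold and rose from 6.52, 5.93 and 5.89 TPM to 10.06, 10.10 and 10.04 TPM (log2 fold change 0.64, SE 0.08, limma adjusted p = 3.30e-05). PANX1, a release channel, rose from 34.4 ± 1.87 to 49.9 ± 3.14 TPM (SD, n = 3 each), NLRP1 from 9.48 ± 0.570 to 13.6 ± 0.713 TPM and NLRP3 from 2.63 ± 0.0764 to 3.66 ± 0.171 TPM. The calpains CAPN1 and CAPN2, of the protease family that cleaves the IL-1α precursor, rose by log2 fold changes of 0.44 and 0.32. HAX1, a binding partner of the IL-1α precursor, was the gene that fell (log2 fold change -0.14), and it no longer passed without vehicle replicate 1, vehicle replicate 3, PDBAG1 replicate 2 or PDBAG1 replicate 3. PYCARD, the adaptor that joins sensors to CASP1, was at 24.9 ± 1.40 and 25.9 ± 3.18 TPM, and GSDMD, the pore through which IL-1β leaves cells, at 68.5 ± 0.921 and 62.8 ± 3.68 TPM. Neither passed the threshold. The PYCARD groups overlapped, whereas every GSDMD value with PDBAG1 lay below those with vehicle (log2 fold change -0.13, SE 0.05).

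Of 28 textbook IL-1 response genes, 24 were tested. At an adjusted p of 0.05, 20 were higher (83.3%) and 3 lower (12.5%), beside 21.7% and 15.9% of all genes. At 1.5-fold 13 were called higher and 0 lower, beside 2.86% and 0.477% of all genes. The median log2 fold change of the 24 genes was 0.65, against 0.03 for all genes tested. Most of these genes also respond to TNF, and several had been examined in these data before the list was written, so the count does not speak for IL-1 in particular. PTGS2, the inducible cyclooxygenase, was at 5.42, 5.29 and 4.53 TPM with vehicle and at 26.98, 30.23 and 29.16 TPM with PDBAG1, with no overlap. The growth factors CSF2 and CSF3 rose by log2 fold changes of 1.36 and 1.25, the mitochondrial superoxide dismutase SOD2 by 1.08, and the chemokines CCL20 and CXCL2 by 0.95 and 0.91. The genes that fell were CXCL1 (560 ± 15.5 to 462 ± 20.5 TPM; SD, n = 3 each) and the acute-phase genes SAA1 (1056 ± 31.5 to 788 ± 25.8 TPM) and SAA2 (344 ± 21.4 to 253 ± 2.97 TPM). SAA1 and SAA2 are near-identical copies whose reads could be split between them, as could those of CXCL1, CXCL2 and CXCL3.

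**Figure D5:**
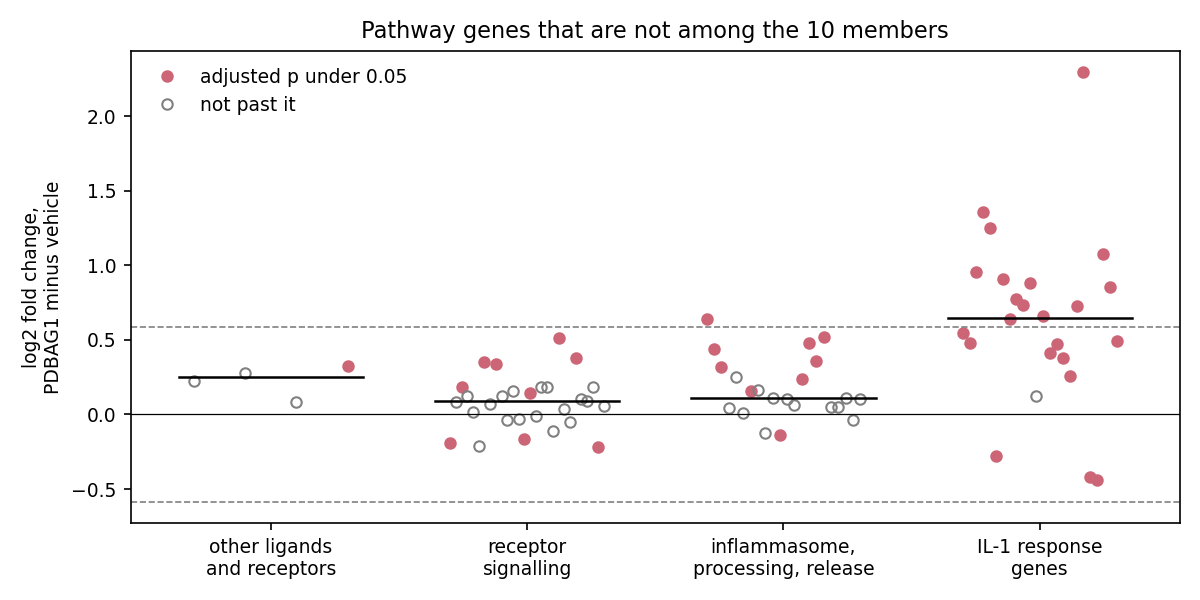
Log2 fold change of each tested gene in the 4 pathway lists (filled, adjusted p under 0.05 in limma; open, not past it; bar, median; dashed lines, 1.5-fold). The receptor signalling and inflammasome lists have medians of 0.09 and 0.11, the response genes 0.65 with PTGS2 highest at 2.29.

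The genes whose profile over the 6 libraries was most like that of IL1B, by Euclidean distance between log2(TPM + 1) values centred on the vehicle mean, were RRAD (distance 0.0937), PPFIA4 (0.250), DEPP1 (0.258), FOS (0.265) and BHLHE40 (0.285). RRAD, a small GTPase of the RGK group, was at 10.55, 11.01 and 11.62 TPM with vehicle and 42.14, 39.94 and 37.52 TPM with PDBAG1. Like IL1B, RRAD, DEPP1 and FOS were lowest among the PDBAG1 libraries in replicate 3, whereas PPFIA4 and BHLHE40 were not. With profiles centred on the vehicle mean, the distance depends mainly on the size of the PDBAG1 difference, which was used to choose the members. It is therefore no measure of shared variation between replicates. BHLHE40, a transcriptional repressor, went from 35.6 ± 0.553 to 137 ± 4.12 TPM (SD, n = 3 each). All 5 had lower levels than IL1B in both groups.

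The line was checked against its markers. With vehicle VIM, CD44, AXL and CAV1 were abundant, at 4270 ± 87.5, 321 ± 9.24, 384 ± 9.81 and 575 ± 14.6 TPM (SD, n = 3 each). PGR and CDH1 were under 1 TPM in every library, and ERBB2 and ESR1 stood at 24.7 ± 0.633 and 2.26 ± 0.240 TPM with vehicle. The epithelial markers KRT8 and EPCAM were at 578 ± 6.21 and 5.14 ± 1.06 TPM with vehicle. At an adjusted p under 0.05 in limma, VIM, CD44 and KRT8 were higher with PDBAG1, and AXL and CAV1 were lower. Of 12 myeloid markers 10 were in the data, and 5 of them were below 1 TPM in every library. Of these 5, ITGAM, CD163 and SPI1 were at or near 0. PTPRC exceeded 1 TPM in some libraries of both groups but stayed under the expression filter. Its vehicle libraries ranged from 0.86 to 1.41 TPM, and its PDBAG1 libraries, from 0.93 to 1.21 TPM, fell inside that range. The markers summed to 12.6 to 14.2 TPM with vehicle and 13.9 to 14.6 TPM with PDBAG1. Of the 4 markers past the filter, CD14 was at 7.12 ± 0.516 and 6.22 ± 0.265 TPM, and CSF1R, at 1.63 ± 0.289 and 3.21 ± 0.508 TPM, was the 1 marker called higher. LYZ was at 1.76 ± 0.170 and 1.95 ± 0.522 TPM and FCER1G at 0.94 ± 0.191 and 1.17 ± 0.400 TPM, and the groups of both overlapped.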

How the data were processed

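RNA-seq of MDA-MB-231 cells was analysed in 6 libraries, 3 per group, grouped by sample title. By the study's methods, mRNA libraries were run on a BGISEQ-500 instrument, and the authors aligned reads to GRCh38 with HISAT2 and reported FPKM; the labels name Illumina library protocols. The submitters' processing notes name HISAT2 2.0.4, Bowtie2 2.2.5 and RSEM 1.2.12. The deposited values are TPM, rounded to 2 decimals, for 17631 genes. TPM keeps no read depth, so neither depth per library nor counting error can be given, and between 12392 and 12611 genes reached 1 TPM in a library.

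Genes reaching 1 TPM in at least 3 libraries entered limma 3.58.1 in R 4.3.3 (trend of variance) on log2(TPM + 1), with Benjamini-Hochberg adjustment over all genes. With 3 libraries against 3 an exact permutation test cannot fall under p = 0.1. The members and lists were chosen with earlier results of these data known. Named pathway genes were up to 6 per list with the largest change among those past the threshold, and a few others (named for their role, or as the genes behind a small count) were chosen after their values were seen. Promoter sequences are from RefSeq on GRCh38.p14, and gene positions from GENCODE v44, which held 17212 of the genes. The limma fit was tested on simulated data. Alternatives were a pseudocount of 0.1, no filter, median-of-ratios scaling, quantile normalization, the replicate number as a block and leaving out each library.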

Additional observations from a re-analysis of the deposited data

How the results depend on the processing

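The members were chosen on this contrast, so the counts below describe the settings and do not test the members. The 3 called at 1.5-fold and the 4 past an adjusted p of 0.05 kept these counts, all higher, under a pseudocount of 0.1, no filter, median-of-ratios scaling, quantile normalization, the replicate block and each left-out library. When single libraries were left out, the log2 fold change ranged from 1.75 to 1.82 for IL1B, 1.05 to 1.15 for IL1A, 1.05 to 1.11 for IRAK2 and 0.28 to 0.34 for IL1RAP. The count for further ligands and receptors ranged from 1 to 3 (3 without vehicle replicate 1, 2 without PDBAG1 replicate 1), that for receptor signalling from 5 to 10 (5 without PDBAG1 replicate 2), and that for inflammasome, processing and release from 7 to 13, with its 1 lower gene lost in 4 of the 6 cases. With the replicate block receptor signalling gave 6 genes in place of 9, and the response genes stayed at 23. The labels give the numbers no shared origin, and the deviations of libraries with equal numbers correlated at -0.21, 0.01 and -0.08. Only 1 of the 6 libraries correlated best with its own number. Over all genes, 360 higher and 60 lower calls became 287 and 94 under quantile normalization and 530 and 100 with a pseudocount of 0.1. The causes were not tested. Members below the filter (IL1RN, IL1R2 and IL33) entered only without it, and none passed.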
